A study of Mus musculus with 8 samples.

Results

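Tyrosine hydroxylase and 8 other genes of the dopamine system were examined in gonadotropes isolated from the mouse pituitary gland. The 9 genes were taken by symbol from the 55523 entries of the count table: *Th*, *Ddc* and *Dbh* encode enzymes of catecholamine synthesis, *Slc18a1*, *Slc18a2* and *Slc6a3* encode transporters, *Drd2* and *Drd4* encode dopamine receptors, and *Maoa* encodes an enzyme of breakdown. Each symbol had a single entry. The genes were chosen by their place in the dopamine system with earlier results of these samples known, which include the difference of the same counts between the sexes. Their levels and their differences between the sexes are therefore given as a description, without p-values, and whether a gene passed the threshold of the fit across all genes is stated as part of that description.

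The cells were EGFP-positive cells sorted from pituitary glands of Ad4BP-BAC-EGFP mice, in which a bacterial artificial chromosome carrying *Nr5a1* (Ad4BP) regulatory sequence drives EGFP. All 8 samples, called females 1 to 4 and males 1 to 4 by their replicate numbers, carry this transgene and no other allele or treatment is given. The age of the animals, and whether a sample pools animals, are not given in the sources used here. The sort therefore depends on activity of the transgene, and p-values measure only the spread between these samples. The total count was between 18774578 and 31302588 per sample. Male 1, which the study left out for its distinct expression pattern, is shown apart here: it had the lowest *Nr5a1*, at 16.4 CPM (counts scaled to a common library size with TMM factors), where males 2 to 4 had 590 to 794 CPM and the females had 863 to 1263 CPM. Of the 20152 genes tested, it lay above all 3 other males for 35.9% and below them for 34.2%.

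The 5 gonadotrope markers (*Lhb*, *Fshb*, *Gnrhr*, *Cga*, *Nr5a1*) were counted in every sample and summed to 21515 to 34770 CPM in females, 67399.5 to 76488 CPM in males 2 to 4 and 28571 CPM in male 1. Of the 5, *Fshb* alone was called between the sexes, where 2.34% of all genes tested were called. *Fshb* was at 1398 to 5708 CPM in females, 17066 to 30664 CPM in males 2 to 4 and 5790.3 CPM in male 1. *Lhb*, *Gnrhr* and *Cga* overlapped between the groups. Transcripts of other pituitary cells were present in every sample too. Somatotrope markers (*Gh*, *Ghrhr*) summed to 12413 to 58215 CPM in females, 64453 to 143754 CPM in males 2 to 4 and 30309 CPM in male 1, and thyrotrope markers (*Tshb*, *Trhr*, *Dio2*) to 84.7 to 223 CPM, 276 to 378 CPM and 105 CPM. Both sums lay higher in males 2 to 4 than in the females. The thyrotrope sum followed *Tshb*, and *Dio2* alone lay the other way, at 63.2 to 138 CPM in females, 38.5 to 50.001 CPM in males 2 to 4 and 21.1 CPM in male 1. The part of somatotropes and thyrotropes in the differences between the sexes described here was not tested. In these bulk samples, fewer cells of a type and less RNA per cell cannot be told apart.

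Dopamine is made from tyrosine in 2 steps: tyrosine hydroxylase (TH) forms L-DOPA, the rate-limiting step, and DOPA decarboxylase (DDC) forms dopamine, which dopamine beta-hydroxylase (DBH) converts to noradrenaline. Vesicular monoamine transporters load the amines into vesicles, the dopamine transporter takes dopamine back up from outside the cell, and monoamine oxidases take part in its breakdown. In the pituitary gland, dopamine is best known as the hypothalamic inhibitor of prolactin release, which acts on D2 receptors of lactotropes.

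*Th*, the gene of the rate-limiting enzyme, was counted in every male sample and hardly at all in females. It was at 0, 0, 0.0918 and 0.433 CPM in females 1 to 4, at 3.77, 11.3 and 10.2 CPM in males 2 to 4 and at 4.30 CPM in male 1. These levels come from 0, 0, 3 and 10 counts in the females, against 97, 303 and 223 counts in males 2 to 4 and 98 counts in male 1. Each male lay above each female, and the lowest of the 4 males had 3.77 CPM. A count of 0 in females 1 and 2 allows a level of up to 0.128 and 0.147 CPM, at 3 counts, with counting error only. The mean was 0.131 ± 0.206 CPM (SD, n = 4) over the females. For males 2 to 4 it was 8.45 ± 4.09 CPM (SD, n = 3). Fitted in edgeR, *Th* was higher in males by a log2 fold change of 5.93 (standard error 1.04), or 60.9-fold, and passed the threshold of an adjusted p of 0.05. Because 2 of the females had no counts, the size of this fold change rests on few reads, and without female 4 it was 7.64. *Th* passed the filter on low counts through the males, so that it could only be tested because of the group in which it was high. *Th* was no longer called when female 1, 2 or 3 or male 2, 3 or 4 was left out, when male 1 was added, with no filter or with a replicate block, with log2 fold changes of 5.56 to 6.28 in these fits.

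*Th* (ENSMUSG00000000214.11) lies on the minus strand of chromosome 7 from 142892752 to 142931128 in GENCODE M21 (GRCm38, mm10), with 6 annotated transcripts, and no other annotated gene overlaps it. The neighbours *Ins2*, *Igf2* and *Ascl2* of the same imprinted region did not share this pattern. *Ins2* was at 0 counts in all 8 samples, *Ascl2* was at most 0.375 CPM, and *Igf2* was at 5.65 CPM in female 1, at 0.505 CPM in male 4 and at 0 elsewhere. None of the 3 passed the filter on low counts.

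Dopamine beta-hydroxylase showed the other arrangement. *Dbh* (ENSMUSG00000000889.8; chromosome 2, 27165233 to 27183200) was at 0 counts in all 4 males and at 2, 28, 44 and 0 counts in females 1 to 4, or 0.0856, 1.37, 1.35 and 0 CPM. The mean of the females was 0.702 ± 0.762 CPM (SD, n = 4), at least 5.74-fold higher than the mean of 0.122 CPM that 3 counts per library would give in males 2 to 4. Female 4 was at 0 like the males, so the groups overlapped, and *Dbh* did not pass the filter on low counts and was not fitted. With a minimum of 10 counts, *Th* and *Ddc* both passed in 4 of 4 males and in 1 of 4 females, female 4, which had 10 *Th* counts. *Th* and *Dbh* both passed in 0 of 8 samples. These counts restate the values of each gene, and bulk samples do not show whether the same cells hold both.

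*Ddc*, whose enzyme acts between the other two, was counted in every sample and lay higher in females. It was at 7.62, 6.43, 5.75 and 13.4 CPM in females 1 to 4, at 3.54, 5.73 and 4.59 CPM in males 2 to 4 and at 3.20 CPM in male 1. The lowest female (5.75 CPM) and the highest male (5.73 CPM) nearly touched, although the groups did not overlap. The log2 fold change was −0.87 (standard error 0.35), which did not pass the threshold. *Ddc* (ENSMUSG00000020182.16; chromosome 11, minus strand, 11814101 to 11898144) overlaps the antisense gene *1700042O10Rik*, which had 0 to 14 counts in a sample, and reads from the overlap could not be told apart without strand.

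**Figure D1:**
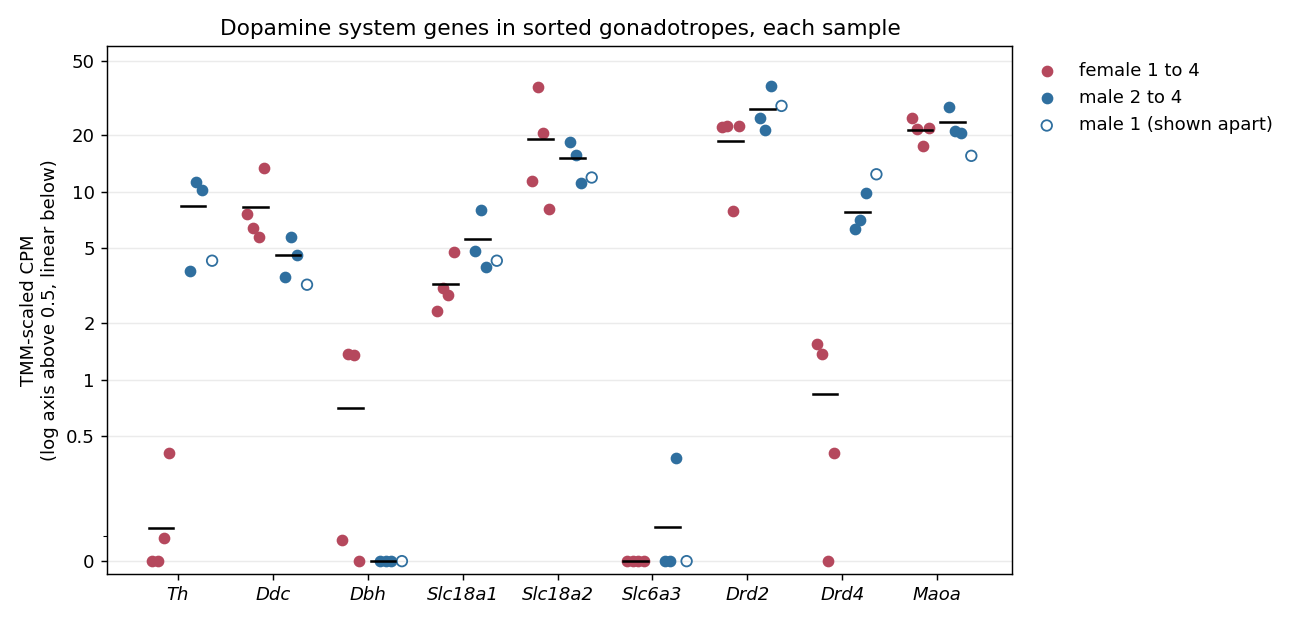
TMM-scaled CPM (y axis, logarithmic above 0.5 and linear below) of each of the 9 genes in each sample, with females in red, males 2 to 4 in filled blue, male 1 as an open circle and group means as black lines. *Th* and *Drd4* lie higher in every male than in every female, *Dbh* is at 0 in the 4 males, and *Maoa* is at similar levels in both sexes.

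Among the receptors, *Drd2* was the more abundant and *Drd4* showed the larger difference between the sexes. *Drd4* (ENSMUSG00000025496.5; chromosome 7, plus strand, 141292006 to 141296464) was at 1.54, 1.37, 0 and 0.433 CPM in females 1 to 4, at 6.37, 7.08 and 9.91 CPM in males 2 to 4 and at 12.4 CPM in male 1. All 4 males lay above all 4 females, with 164 to 283 counts in the males and 0 to 36 counts in the females. Its log2 fold change was 3.21 (standard error 1.01), or 9.24-fold, and it did not pass the threshold in edgeR, although it did in DESeq2. Without each sample in turn the log2 fold change of *Drd4* stayed between 2.79 and 3.74. The gene *Deaf1* on the other strand ends close to *Drd4* without overlapping it. In male 1 *Drd4* lay above the range of males 2 to 4, at 1.59 times their mean, as 35.9% of all genes tested did, and *Th* lay within their range.

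*Drd2* (ENSMUSG00000032259.8; chromosome 9, plus strand, 49340627 to 49408177), the D2 receptor, was at 22.3, 22.3, 7.93 and 22.5 CPM in females 1 to 4, at 24.9, 21.5 and 36.9 CPM in males 2 to 4 and at 28.7 CPM in male 1. Females 1, 2 and 4 were nearly equal, while female 3 was 0.356 times the next lowest. Of the 12559 genes tested with a mean of at least 5 CPM in females, 8.32% had a lowest female at least this far below the next. For *Drd2* the log2 fold change was 0.54 (standard error 0.40) and was not called, and without female 3 it was 0.31.

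The D2 receptor is a lactotrope and melanotrope gene as well, and the markers of these cells are set beside it. The lactotrope markers (*Prl*, *Agtr1b*) summed to 4677 to 18234 CPM in females, 6179 to 15841 CPM in males 2 to 4 and 1630 CPM in male 1, almost wholly from *Prl*. Male 1 thus had the lowest *Prl* and the second highest *Drd2* of the 8 samples. The corticotrope and melanotrope markers (*Pomc*, *Crhr1*, *Tbx19*, *Pax7*) summed to 12422 to 22218 CPM, 10095 to 28943 CPM and 18886 CPM. Male 4 was highest in this sum, which came almost wholly from *Pomc*, and in *Drd2*. *Tbx19* was highest in male 4 too, at 54.6 CPM. *Pax7* was at 9.22 CPM in male 4 and highest in female 2, at 19.3 CPM. *Crhr1* was at 8.44 CPM in male 4 and highest in male 1, at 15.0 CPM. The part of these cells in the level of *Drd2* was not tested.

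The vesicular monoamine transporters were both counted in all 8 samples, and *Slc18a2* (VMAT2) was the more abundant per length. *Slc18a2* (ENSMUSG00000025094.8; chromosome 19, plus strand, 59260896 to 59296012) was at 11.4, 36.1, 20.6 and 8.14 CPM in females 1 to 4, at 18.4, 15.8 and 11.1 CPM in males 2 to 4 and at 11.9 CPM in male 1. Its log2 fold change was −0.36 (standard error 0.51), and without female 2, the highest sample, it was 0.18, so no direction can be given. *Slc18a1* (VMAT1; ENSMUSG00000036330.12; chromosome 8, minus strand, 69037711 to 69089235) was at 2.31, 3.09, 2.82 and 4.76 CPM in females 1 to 4, at 4.82, 8.02 and 3.99 CPM in males 2 to 4 and at 4.30 CPM in male 1. The groups overlapped, with female 4 above male 4, and the log2 fold change of 0.76 (standard error 0.35) was not called. The 5′ end of *Slc18a1* overlaps *Atp6v1b2* on the other strand, a gene with 4472 to 12886 counts per sample, so a share of these reads could belong to it. *Slc18a2* in turn overlaps the antisense gene *Gm29261*, which had at most 5 counts in a sample.

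The dopamine transporter was nearly absent. *Slc6a3* (ENSMUSG00000021609.6; chromosome 13, plus strand, 73536747 to 73578672) was counted in male 4 alone, at 9 counts (0.413 CPM), and was at 0 counts in the other 7 samples, which allows up to 0.0918 to 0.147 CPM in those. It did not pass the filter on low counts.

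*Maoa*, the gene of monoamine oxidase A, varied least within the females and within males 2 to 4 among the 7 genes that were tested. Male 1 is left out of this ranking. *Maoa* (ENSMUSG00000025037.6; chromosome X, plus strand, 16619698 to 16687818) was at 24.7, 21.6, 17.6 and 22.0 CPM in females 1 to 4, at 28.5, 21.2 and 20.7 CPM in males 2 to 4 and at 15.6 CPM in male 1. The SD was 13.5% of the mean in females and 18.5% in males 2 to 4, against 156.9% and 48.4% for *Th* and 38.5% and 29.1% for *Drd2*. For *Maoa* the log2 fold change was 0.10 (standard error 0.19), and it was −0.11 with library size alone as the scale.

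**Figure D2:**
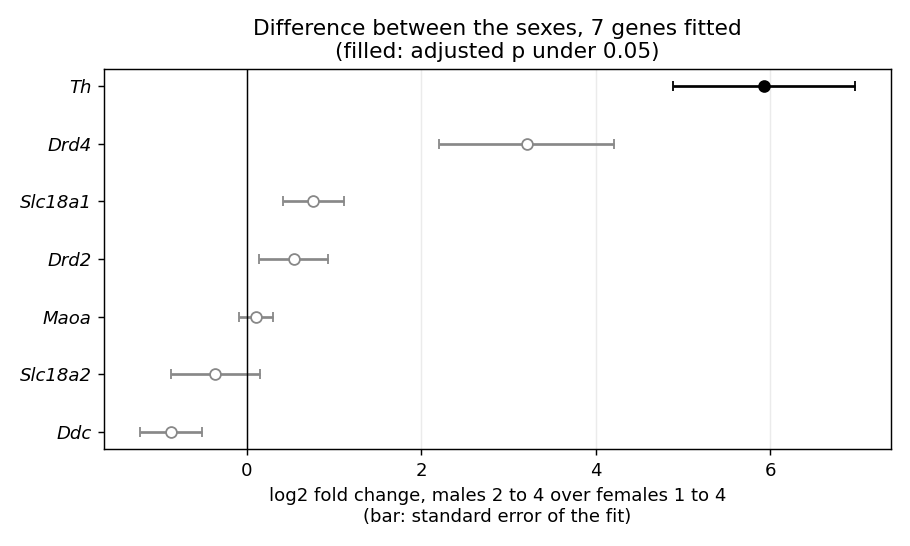
Log2 fold change of males 2 to 4 over females 1 to 4 (x axis) for the 7 of 9 genes that passed the filter on low counts, with the standard error of the fit as bars. Only *Th*, at 5.93, passed an adjusted p of 0.05 and is filled, and *Drd4*, at 3.21, has a standard error of 1.01.

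In the fit across all genes, 471 of 20152 genes (2.34%) had an adjusted p under 0.05 in edgeR's quasi-likelihood test, with 0.983% higher in males and 1.35% higher in females. These were 198 and 273 genes, against 133 and 675 with library size alone as the scale. Of the 9 dopamine genes, 7 were tested and *Th* was the 1 called. The groups did not overlap for 3 of the 7 (*Th*, *Drd4* and *Ddc*), where 22.5% of all genes tested had groups that did not overlap. The median log2 fold change was 0.54 over the 7 genes and −0.03 over all genes tested. A log2 fold change as large as that of *Th* or larger was fitted for 0.109% of all genes tested, and one as large as that of *Drd4* for 0.447%. These shares describe the place of genes that were chosen with the results known, and nothing is read from them.

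Levels of different genes were compared per kilobase (kb) of annotated exon. In males 2 to 4 the order was *Drd2* (10.9 ± 3.17 CPM per kb, SD, n = 3), *Maoa* (5.63 ± 1.04), *Th* (3.57 ± 1.73), *Slc18a2* (2.89 ± 0.705), *Drd4* (2.30 ± 0.553), *Slc18a1* (1.04 ± 0.394) and *Ddc* (1.04 ± 0.246), with *Slc6a3* and *Dbh* at or near 0. The neighbours *Maoa* and *Th*, *Th* and *Slc18a2*, *Slc18a2* and *Drd4*, and *Slc18a1* and *Ddc* differed by less than the sum of their SDs. In females *Drd2* (7.36 ± 2.83 CPM per kb, SD, n = 4), *Maoa* (5.16 ± 0.696) and *Slc18a2* (3.65 ± 2.40) again came first, followed by *Ddc* (1.86 ± 0.779), and *Th* came eighth (0.0555 ± 0.0871). Among these first 4, neighbours differed by less than the sum of their SDs. With the longest annotated transcript as the length, *Ddc* stood before *Slc18a1* in males and *Drd4* before *Dbh* in females. The transcripts used for counting are assembled ones whose lengths are not known here, so this order is approximate.

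**Figure D3:**
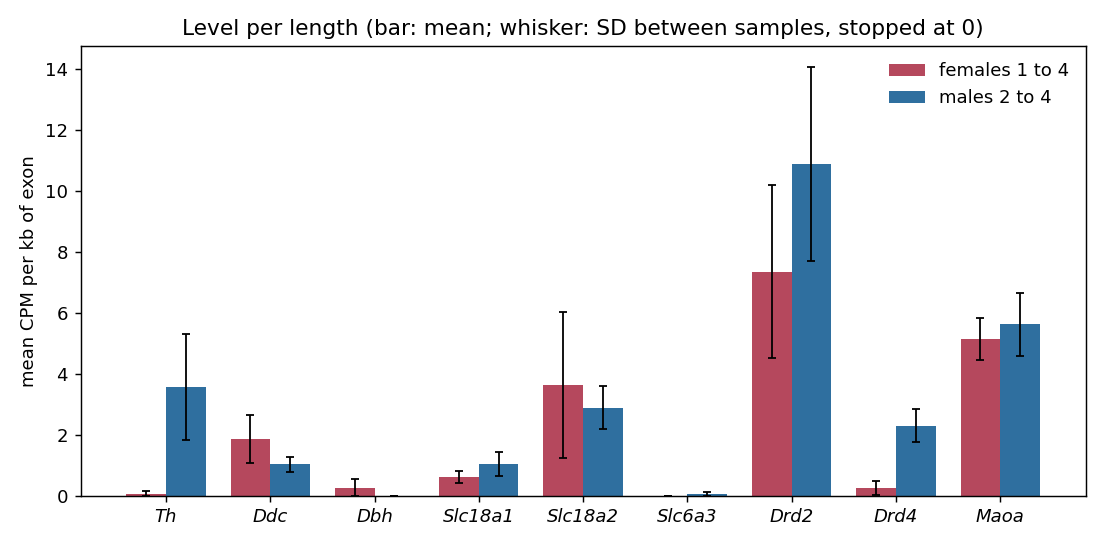
Mean CPM per kb of annotated exon (y axis) of each of the 9 genes in females 1 to 4 (red) and males 2 to 4 (blue), with the SD between samples as whiskers. *Drd2* is highest in both sexes, at 7.36 and 10.9 CPM per kb, and *Th* is at 0.0555 in females and 3.57 in males.

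The promoters of *Th*, *Drd4* and *Slc18a2* are shown because the first 2 were the genes higher in every male and the third shares a motif with *Th*. Each sequence covers 250 bases before and 50 bases after the start annotated by RefSeq (GRCm38.p6), on the strand of the gene, and capitals mark the motifs found. The motifs searched on both strands were the cAMP response element TGACGTCA, which CREB-family factors bind, and CAAGGTCA and CAAGGCCA, forms of the site bound by NR5A1. RefSeq promoters were at hand for 8 of the 9 genes.
Th, chr7:142899946-142900245, minus strand: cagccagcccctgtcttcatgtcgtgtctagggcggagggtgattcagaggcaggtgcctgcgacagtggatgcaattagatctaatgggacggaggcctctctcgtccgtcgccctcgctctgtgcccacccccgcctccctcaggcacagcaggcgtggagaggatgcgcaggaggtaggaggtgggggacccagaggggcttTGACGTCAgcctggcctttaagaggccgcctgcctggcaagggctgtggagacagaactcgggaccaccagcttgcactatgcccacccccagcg
Slc18a2, chr19:59260628-59260927, plus strand: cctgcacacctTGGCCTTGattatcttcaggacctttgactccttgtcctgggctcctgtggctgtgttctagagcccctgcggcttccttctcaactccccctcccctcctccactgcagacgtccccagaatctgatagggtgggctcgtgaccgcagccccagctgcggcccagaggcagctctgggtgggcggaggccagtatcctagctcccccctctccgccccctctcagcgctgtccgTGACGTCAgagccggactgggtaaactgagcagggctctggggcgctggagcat
Drd4, chr7:141291768-141292067, plus strand: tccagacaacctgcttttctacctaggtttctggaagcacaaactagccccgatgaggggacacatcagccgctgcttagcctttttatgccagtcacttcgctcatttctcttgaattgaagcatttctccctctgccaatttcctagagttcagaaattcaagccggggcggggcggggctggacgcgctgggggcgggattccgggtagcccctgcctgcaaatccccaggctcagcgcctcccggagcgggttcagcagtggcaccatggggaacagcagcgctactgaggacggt

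TGACGTCA began 45 bases before the annotated start in *Th* and 4 bases before it in *Slc18a2*, and *Slc18a2* also held CAAGGCCA on the other strand, beginning 239 bases before the start. None of the 3 motifs was in the window of *Drd4*, *Drd2*, *Ddc*, *Dbh*, *Slc6a3* or *Maoa*. Among all 32851 promoter windows of this length, 1.79% held TGACGTCA, 1.56% held CAAGGTCA and 2.40% held CAAGGCCA. A match describes letters in a window and no binding was measured.

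Cells that make catecholamines elsewhere were looked for by their markers. Of 5 markers of chromaffin and sympathetic cells, *Hand2* and *Npy* were at 0 counts in all 8 samples, and the sum of the 5 (with *Pnmt*, *Phox2a* and *Slc6a2*) was at most 0.606 CPM in females, at most 0.872 CPM in males 2 to 4 and 0 CPM in male 1, which had 4.30 CPM of *Th*. *Pnmt*, whose enzyme makes adrenaline, had 21 and 16 counts in males 2 and 4 and 0 counts in the other samples. Stem cell markers (*Sox2*, *S100b*, *Aldh1a2*) summed to 111 to 230.5 CPM, 107 to 135 CPM and 162 CPM. Of these *Sox2* did not overlap, at 49.8 to 77.9 CPM in females and 30.1 to 36.6 CPM in males 2 to 4, with 66.7 CPM in male 1. Endothelial markers (*Pecam1*, *Cdh5*, *Plvap*, *Flt1*) summed to 246 to 361 CPM, 265 to 336 CPM and 499.5 CPM. Markers of pericytes and stroma (*Pdgfrb*, *Col1a1*, *Dcn*, *Rgs5*) summed to 169 to 196 CPM in females and 209 to 461 CPM in males 2 to 4, mostly from *Rgs5*, but to 116 CPM in male 1. *Col1a1* lay the other way, at 5.40 to 13.1 CPM in females, 2.98 to 4.23 CPM in males 2 to 4 and 7.86 CPM in male 1, and *Pdgfrb* and *Dcn* overlapped between the groups. Of the markers of the posterior lobe and of nerve, *Mbp* (myelin basic protein) was at 34.8 to 46.9 CPM in females, 26.1 to 32.2 CPM in males 2 to 4 and 33.97 CPM in male 1, so males 2 to 4 lay below the females. *Rax*, *Avp*, *Oxt* and *Gfap* were at most 2.72 CPM in any sample and overlapped between the groups. Immune markers (*Ptprc*, *Cd68*, *Csf1r*, *Lyz2*) were at 10.7 to 35.6 CPM, 14.7 to 44.2 CPM and 15.9 CPM, and globin genes at 183 to 578 CPM, 80.2 to 224 CPM and 49.9 CPM. The part of these cells in the differences was not tested.

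Genes around the 9 were taken from lists of 83 genes, of which 61 were tested, 2 were higher in males and 2 were higher in females, where 2.34% of all genes tested were called. Those 4 were *Maob*, *Gata2*, *Nr4a2* and *Camk2b*. The groups did not overlap for 29 of the 61, where the share was 22.5% over all genes tested, and the median log2 fold change of the 61 was −0.26, against −0.03 over all genes.

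*Maob*, the gene of monoamine oxidase B, was higher in males and passed the threshold, which *Maoa* did not. The difference between the 2 genes was not tested. It was at 20.1, 17.6, 19.0 and 12.0 CPM in females 1 to 4, at 40.7, 43.7 and 35.001 CPM in males 2 to 4 and at 30.2 CPM in male 1. All 4 males lay above all 4 females. The log2 fold change was 1.19 (standard error 0.21), and the adjusted p in edgeR was 0.0429. The call rests on all 7 samples, since without any of them the adjusted p from edgeR was between 0.0554 and 0.143, and over all 17 alternatives it was between 4.48e-05 and 0.227. Of the 5 other catecholamine enzymes on the list, *Maob* was the 1 called of 4 tested, where 2.34% of all genes tested were called.

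Of 18 transcription factors of catecholamine cells, 10 were tested, 1 was higher in males and 1 in females. Over all genes tested, 2.34% were called. *Gata2*, a factor of gonadotropes and thyrotropes as well as of sympathetic cells, was at 64.5, 65.2, 64.7 and 68.6 CPM in the females, at 302, 248 and 189 CPM in males 2 to 4 and at 332 CPM in male 1. The females were nearly equal and all 4 males lay far above them. The log2 fold change was 1.88 (standard error 0.17), with an adjusted p in edgeR of 0.00885, and every leave-one-out fit kept the call, with adjusted p between 0.00750 and 0.0316. Over all 17 alternatives its adjusted p was between 2.64e-17 and 0.216, the highest with a replicate block. *Nr4a2* (NURR1), an orphan nuclear receptor known as an activator of *Th* in midbrain neurons, was at 151, 179, 175 and 242 CPM in the females and at 77.0, 95.9 and 94.8 CPM in males 2 to 4. Its log2 fold change was −1.09 (standard error 0.20), with an adjusted p in edgeR of 0.0460. In male 1, however, it was at 256 CPM, above every other sample, and with this sample included the adjusted p from edgeR was 0.748. It was between 0.0573 and 0.149 when any of the 7 samples was left out, so that no leave-one-out fit kept the call. The related *Nr4a1* was at 433 to 655 CPM in females and 578 to 600 CPM in males 2 to 4 and at 603 CPM in male 1 and was not called. *Pitx3*, *Lmx1a*, *Foxa2* and *Phox2a*, factors of dopamine or noradrenaline neurons, were at most 0.582 CPM in any sample. *Lmx1b*, another factor of dopamine neurons, was at 5.27, 1.42, 0.826 and 0.953 CPM in females 1 to 4, at 0 to 0.459 CPM in males 2 to 4 and at 5.44 CPM in male 1, and was not called. *En1*, *En2* and *Hand2* were at 0 counts in all 8.

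All 14 genes for kinases, a phosphatase and YWHA adaptor proteins that act on the TH protein were tested. Of these 0 were higher in males and 1, *Camk2b*, was higher in females, where 2.34% of all genes tested were called. *Camk2b*, a subunit of calcium/calmodulin-dependent kinase II, was at 137, 165, 157 and 169 CPM in the females, at 92.3, 84.5 and 93.0 CPM in males 2 to 4 and at 137 CPM in male 1, which lay with the females. The log2 fold change was −0.83 (standard error 0.13), with an adjusted p in edgeR of 0.0358, and with male 1 included it was −0.62 with an adjusted p of 0.295. The call was kept without female 1 and lost without any of the other 6 samples, where the adjusted p from edgeR reached 0.136. *Camk2a* was not called, at 4.96 to 10.2 CPM in females and 0.824 to 2.29 CPM in males 2 to 4 and at 8.69 CPM in male 1, within the range of the females, with an adjusted p in edgeR of 0.0628.

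**Figure D4:**
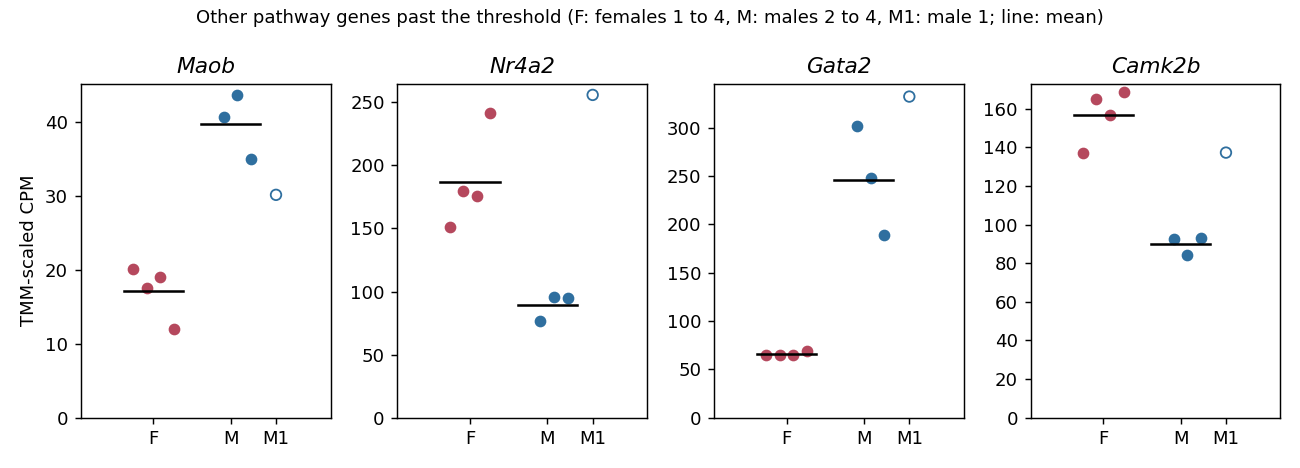
TMM-scaled CPM (y axis, from 0) of the 4 genes of the other lists that passed an adjusted p of 0.05, with females 1 to 4 in red, males 2 to 4 in filled blue, male 1 as an open circle and means as lines. Male 1 lies outside the range of males 2 to 4 for all 4 genes: it is above them for *Gata2*, between the females and them for *Maob*, and above them with or above the females for *Camk2b* and *Nr4a2*.

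All 9 genes for the supply of the TH cofactor tetrahydrobiopterin and for helpers of these enzymes were tested. Of these 0 were called, against 2.34% of all genes tested. *Gch1*, the first enzyme of tetrahydrobiopterin synthesis, was at 18.2, 10.3, 11.3 and 19.8 CPM in the females, at 34.7, 26.1 and 20.1 CPM in males 2 to 4 and at 30.02 CPM in male 1. The groups did not overlap, and the log2 fold change was 0.83 (standard error 0.31), with an adjusted p in edgeR of 0.197. *Cyb561*, which supplies electrons for ascorbate inside vesicles, was at 180 to 237 CPM in females and 236 to 268 CPM in males 2 to 4 and at 173 CPM in male 1.

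Of the other uptake transporters, 1 of 5 was tested and it was not called, where 2.34% of all genes tested were called. *Slc29a4* (PMAT), a low-affinity monoamine transporter of the cell membrane, was at 43.6, 24.8, 21.5 and 48.8 CPM in the females, at 12.1, 10.5 and 7.71 CPM in males 2 to 4 and at 38.8 CPM in male 1. The 3 males lay below all females, and the log2 fold change of −1.80 (standard error 0.36) had an adjusted p in edgeR of 0.0535. *Slc22a3* was at 0 counts in all 8 samples, and the noradrenaline transporter *Slc6a2* had 12 counts in female 4 and 0 counts elsewhere.

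Of the other dopamine receptors, *Drd3* was at 0.343 to 2.12 CPM in females and 0.550 to 2.25 CPM in males 2 to 4 and was not called. *Drd1* and *Drd5*, which couple to stimulatory G proteins, were at most 0.300 CPM in any sample and were not tested. Of 9 adrenergic receptors 5 were tested and 0 were called, against 2.34% of all genes tested. *Adra2a*, an inhibitory receptor for noradrenaline, was at 0 counts in all 4 males and at 0.171, 1.13, 1.01 and 0.476 CPM in females 1 to 4, from 4 to 33 counts. It passed the filter on low counts through the females, the group in which it was high, and was not called.

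Of 17 signalling partners of dopamine receptors, all were tested and 0 were called, against 2.34% of all genes tested, and the groups did not overlap for 10, against 22.5% of all genes tested. *Gnai2* and *Gnai3* encode inhibitory G protein subunits to which D2-type receptors couple. *Gnai2* was at 149 to 241 CPM in females and 113 to 135 CPM in males 2 to 4 and at 220 CPM in male 1, with an adjusted p in edgeR of 0.0899. *Gnai3* was at 97.6 to 109 CPM in females and 149.6 to 176 CPM in males 2 to 4 and at 73.2 CPM in male 1, with an adjusted p in edgeR of 0.0582. *Arrb2*, an arrestin of the D2 receptor, was at 4.96 to 26.2 CPM in females and 1.74 to 2.06 CPM in males 2 to 4 and at 5.05 CPM in male 1, with a log2 fold change of −3.002 (standard error 0.598) and an adjusted p in edgeR of 0.0530. For *Gnai2* and *Arrb2* male 1 lay within the range of the females, and for *Gnai3* it lay below them, so it did not share the values of males 2 to 4. *Arrb2* shares its assembled locus with another entry, so reads could be divided between them.

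**Figure D5:**
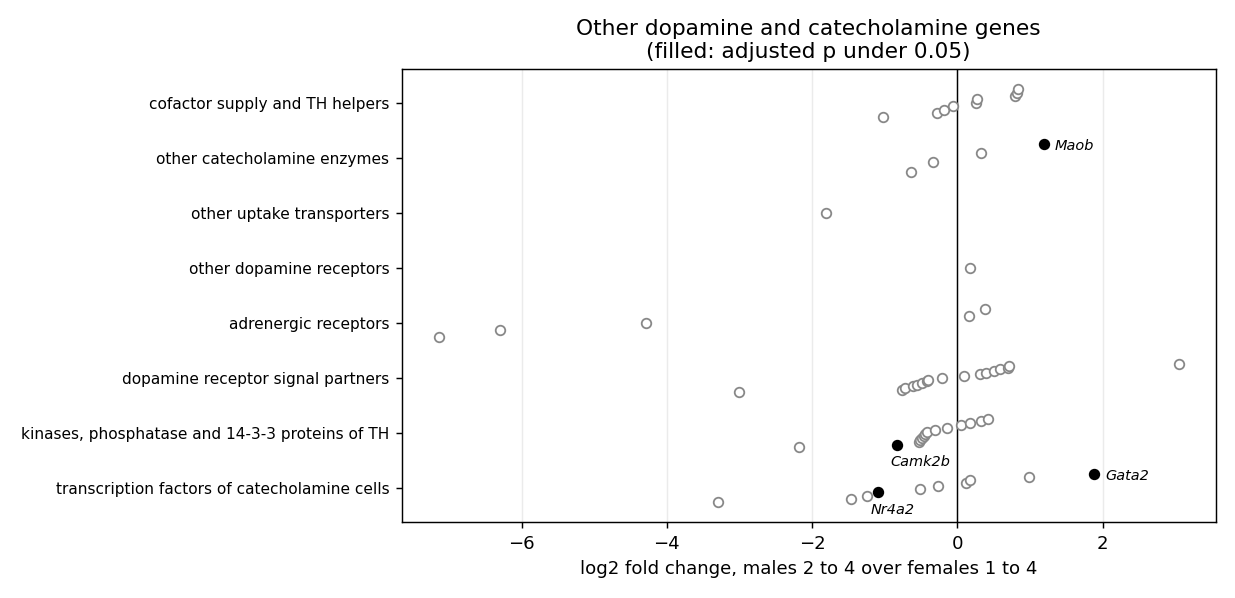
Log2 fold change of males 2 to 4 over females 1 to 4 (x axis) for the genes tested of each list around the dopamine system (y axis), with filled points for an adjusted p under 0.05. The 4 filled points are *Maob* at 1.19, *Gata2* at 1.88, *Nr4a2* at −1.09 and *Camk2b* at −0.83.

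The genes whose levels followed *Th*, *Drd4* and *Drd2* most closely were sought by Pearson's r of log2(CPM + 1) over the 8 samples, with Gm and Rik names left out. The samples share their libraries and fall into 2 sexes, so these values largely restate the difference between the sexes for *Th* and *Drd4*, and they were not tested. For *Th* they were *Nptx1* (0.980), *Ank2* (0.979), *St6galnac1* (0.978), *Bbs9* (0.973) and *Tas1r1* (0.971). Over the 4 females alone, where *Th* had 13 counts, r was negative for *Ank2* and *Bbs9*. It could not be computed there for *St6galnac1* and *Tas1r1*, which were at 0 in all females. Over the 4 males alone, which are among the samples used to choose these genes, r was positive for all 5. *Nptx1*, which encodes neuronal pentraxin 1, was at 2.01 to 3.37 CPM in females and 10.2 to 14.1 CPM in males 2 to 4, and *St6galnac1*, a sialyltransferase gene, was at 0 in females and at 0.544 to 0.749 CPM in those males. For *Drd4* they were *Mycbpap* (0.973), *Slc25a30* (0.967), *Prss41* (0.960), *Unc13c* (0.960) and *Frmpd1* (0.952). Over the 4 males alone r was negative for *Unc13c* and *Frmpd1*, and over the 4 females alone it was positive for all 5. *Unc13c*, a vesicle priming gene, was at 5.78 to 9.18 CPM in females, 23.1 to 28.2 CPM in males 2 to 4 and 27.7 CPM in male 1. For *Drd2* they were *Mfhas1* (0.945), *Hps6* (0.945), *Iqce* (0.942), *Smarcc1* (0.942) and *Hist1h2bp* (0.934). Each of these 5 was lowest among females in female 3, as *Drd2* was. This follows from their choice by correlation with *Drd2*, whose spread among females lay almost wholly in female 3, and nothing is read from it.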

How the data were processed

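RNA of EGFP-positive cells was made into libraries with a low-input kit and sequenced as paired ends. Per the study's methods, the authors trimmed reads with cutadapt (version 4.2), mapped them to mm10 with STAR (version 2.5.4a) and counted reads per gene with featureCounts (version 1.6.1), with default settings. The annotation used is not given in the sources used here. Entries are named by MSTRG loci, as transcript assembly gives, or by Ensembl genes. The deposited values are unnormalized counts per gene, and the depth was 18774578 to 31302588 counts per sample. Intervals and floors (3 counts) cover counting error only.

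Counts were scaled to CPM with TMM factors over 8 samples. The test of males 2 to 4 against females 1 to 4 was run in edgeR (version 4.0.16, R 4.3.3) by the quasi-likelihood test after filterByExpr, with Benjamini-Hochberg adjustment over all genes tested. The standard error is the absolute log2 fold change divided by the square root of F. The fit was tested on simulated data. Alternatives were DESeq2 (version 1.42.0), other scalings and filters, all 8 samples, a replicate block, robust dispersion, locus sums and leaving out each sample. The 9 genes, the lists and the tests were chosen with earlier results of these data known. Named genes are the 9, the list genes past the threshold, those that show a list's range, and the 5 most alike to *Th*, *Drd2* and *Drd4*. Positions are from GENCODE M21, and promoters are from RefSeq (GRCm38.p6). Some genes of the lists are counted in them but not reported here by name.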

Additional observations from a re-analysis of the deposited data

Results flagged for a closer look

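Among 26 groups of 4 samples (the 9 dopamine genes and the 4 other genes called, in females and in males), 4 held a sample far from the other 3. A number expected by chance cannot be set beside this count. *Nr4a2* and *Camk2b* were included because they were called without male 1, and *Slc6a3* was counted in 1 male alone. *Drd2* was at 7.93 CPM in female 3, with females 1, 2 and 4 at 22.3 to 22.5 CPM. *Nr4a2* was at 256 CPM in male 1 and at 77.0 to 95.9 CPM in males 2 to 4. *Camk2b* was at 137 CPM in male 1 and at 84.5 to 93.0 CPM in males 2 to 4. *Slc6a3* was at 0.413 CPM in male 4, from 9 counts, and at 0 in the other males.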

How the results depend on the processing

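The 471 genes called became 2329 with DESeq2, 808 with library size alone and 177 with no filter beyond 1 count. They became 582 of 15991 with at least 10 counts in every sample, 67 with all 8 samples and 88 to 171 with each sample left out. Of the 9 dopamine genes, the 1 called became 2 with DESeq2 (*Drd4* as well, at 3.21) and 0 with no filter, with all 8 samples and with at least 10 counts in every sample, a filter that removes *Th* and *Drd4*. With no filter, 4 of 9 had an unadjusted p under 0.05 in edgeR, against 4327 of 31480 over all genes. With all 8 samples it was 3 of 7, against 1997 of 19587. With at least 10 counts in every sample it was 1 of 5, against 3680 of 15991. The number of dopamine genes called was 0 to 1 with each sample left out. *Th* was then at a log2 fold change of 5.93 with no filter, 5.76 with all 8 samples and 5.56 to 7.64 with each sample left out. *Maoa* turned to −0.11 with library size alone and ranged from −0.058 (without male 2) to 0.19 with each sample left out, and *Slc18a2* ranged from −0.59 to 0.18. Library size alone moved the median over all genes tested from −0.03 to −0.24, and values there are relative to that shift. Of the 83 other genes, the 4 called became 14 with DESeq2, 9 with library size alone, 1 with no filter, 7 with at least 10 counts in every sample, 1 with all 8 samples and 1 to 2 with each sample left out. The mean of *Th* in females was 0.131 CPM and 0.0306 CPM without female 4, and that of *Slc6a3* in males 2 to 4 was 0.138 CPM and 0 without male 4. The cause of these moves was not tested.

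Same-numbered samples are different animals, and whether they were processed together is not given in the sources used here. The correlation of their deviations from the group means was −0.03, −0.01 and 0.0005 for numbers 2, 3 and 4. Pairing by batch was not tested. With a replicate block edgeR called 0 of 20152 genes, 0 of the 7 dopamine genes tested and 0 of the 61 list genes tested. Of these, 2954, 2 and 14 had an unadjusted p under 0.05. *Th* was at a log2 fold change of 5.90 in that fit.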

Other observations

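Some genes of the lists around the dopamine system differed widely between samples of the same sex. *Qdpr*, which recycles tetrahydrobiopterin, was at 133, 129, 5.999 and 122 CPM in females 1 to 4 and at 259, 15.5 and 10.1 CPM in males 2 to 4. *Pcbd1*, another enzyme of that recycling, was at 29.8 to 43.3 CPM in females and at 43.3, 0.0749 and 14.2 CPM in males 2 to 4. *Qdpr* and *Pcbd1* each have a single entry in their locus, and how completely these entries hold the reads of the genes is not known from the counts. These 2 genes were picked after their values were seen, and no explanation was tested.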
